A study of Homo sapiens with 18 samples.

Results

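The axon guidance ligands and receptors measured here were 67 of the 19775 genes that the arrays named. They were taken by gene symbol. The symbols were those of semaphorins of classes 3 to 7, plexins, neuropilins, ephrins, Eph receptors, SLIT and ROBO genes, netrins, UNC5 genes and DCC. These families were chosen with earlier results of these data known. The set held 5 ephrin-A and 3 ephrin-B ligands, 9 EphA and 4 EphB receptors, 7 secreted and 13 membrane-linked semaphorins, 2 neuropilins, 9 plexins, 3 SLIT genes, 4 ROBO genes, 3 netrins, and 5 netrin receptors of the UNC5 and DCC families. EPHB2 was not analysed here, since every probe set considered had to name a single gene and none did so for EPHB2.

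RNA came from H9, an established human embryonic stem cell line, and from cells derived from it, so every group shared a single genetic background. The 6 groups were undifferentiated ES cells, embryoid bodies kept in suspension to day 6, day 10 neuroepithelial cells of the stage the submitters call primitive, and day 17 neuroepithelial cells of the stage they call definitive, with each neuroepithelial stage grown without and with basic fibroblast growth factor (bFGF). bFGF was given from day 6 onward; the labels state 20 µg/ml for day 10 and 20 ng/ml for day 17, and this difference in units was not resolved. Each group had 3 pools of RNA, 1 array per pool, for 18 arrays. The labels tie the ES and day 6 pools to mixed cell passages. All day 6 pools except pool 3 carry the same passages, which are also those of ES pool 1. These day 6 pools may thus not be independent of each other. No label ties the neuroepithelial pools to separate cultures. The p-values therefore measure the spread between pools, which may be technical. Because these were bulk samples, fewer cells of a type and less RNA per cell cannot be told apart.

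Axon guidance rests on secreted and membrane-bound cues read by receptors on the growth cone. Ephrins and Eph receptor tyrosine kinases signal at cell contacts, and in the early neural tube they also keep neighbouring territories apart. Semaphorins act through plexins, the secreted class with the help of neuropilins. SLIT proteins repel axons through ROBO receptors, and netrins attract axons through DCC or repel them through UNC5 receptors. Many of these genes are used by neural progenitors before any axon grows, and by blood vessels, neural crest and epithelia.

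At each untreated step more guidance genes rose than fell. Signals were compared as log2(signal + 16) with limma, at a Benjamini-Hochberg adjusted p under 0.05 over all 19775 genes. From ES cells to day 6, 14 of the 67 genes rose and 0 fell (20.9% of the set, against 3.85% of all genes called in either direction, 2.19% higher and 1.66% lower). From day 6 to untreated day 10, 10 rose and 2 fell (17.9%, against 6.37% of all genes in either direction, 3.73% higher and 2.64% lower). From untreated day 10 to untreated day 17, 6 rose and 0 fell (8.96%, against 1.99% of all genes in either direction, 1.45% higher and 0.536% lower). Over the whole course, untreated day 17 against ES cells, 25 rose and 3 fell (41.8%, against 20.2% of all genes in either direction, 11.7% higher and 8.47% lower). The compared pools did not overlap for 25 genes in the first step (37.3%, against 19.8% of all genes), 25 in the second (37.3%, against 23.2%) and 37 over the whole course (55.2%, against 33.6%). These comparisons share arrays: the whole course uses the ES and day 17 arrays of the first and last steps, and neighbouring steps share a group.

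The median change of the 67 genes was 0.34 on the log2 scale from ES to day 6 (all genes -0.00), 0.30 from day 6 to day 10 (all genes 0.09), 0.09 from day 10 to day 17 (all genes -0.01) and 0.71 over the whole course (all genes 0.09). The lowest of the 6 group means was the ES mean for 42 of the 67 genes (62.7%, against 29.1% of all genes), and the ES mean was the highest for 4 of them (5.97%, against 20.7%). Of the 67 genes, 25 changed in at least 1 of the 3 steps, and 23 of these rose in at least 1 step. Another 8 passed the test only over the whole course. The matching shares of all genes are not given here, so these counts do not show how the set compares with other genes. A test of any difference among the 6 groups called 32 of the 67 (47.8%, against 19.3% of all genes). With bFGF against none, 0 of the 67 passed at either day in this fit. With the pool number as a fixed block, EPHA3 and PLXNC1 passed at day 17, and as a random block PLXNC1 alone.

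**Figure D1:**
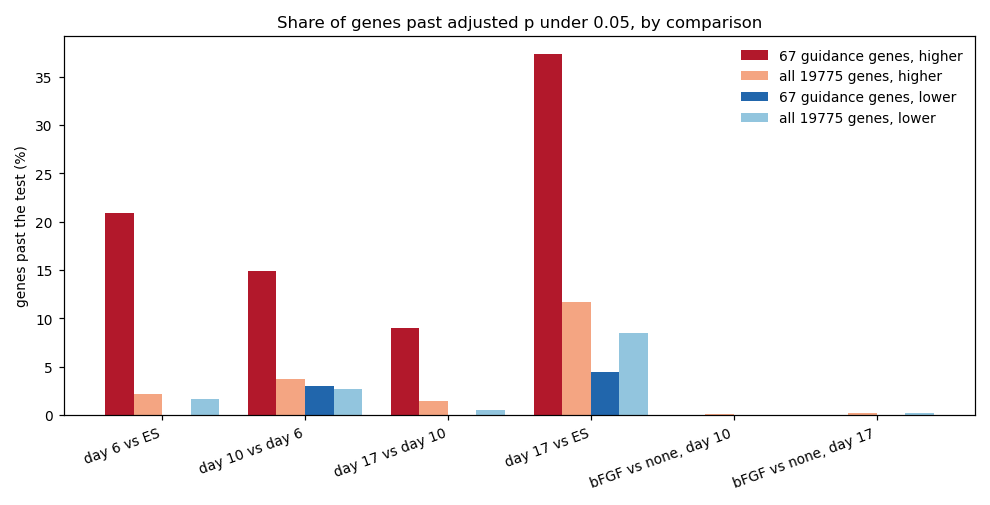
Percent of genes past an adjusted p of 0.05 (limma without a pool block, vertical axis) in each comparison (horizontal axis), for the 67 guidance genes and for all 19775 genes, split by direction. The bars of guidance genes called higher stand at 20.9%, 14.9% and 8.96% for the 3 steps and 37.3% for day 17 against ES, each above the bar of all genes called higher, and no bar of guidance genes stands for either bFGF comparison.

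**Figure D2:**
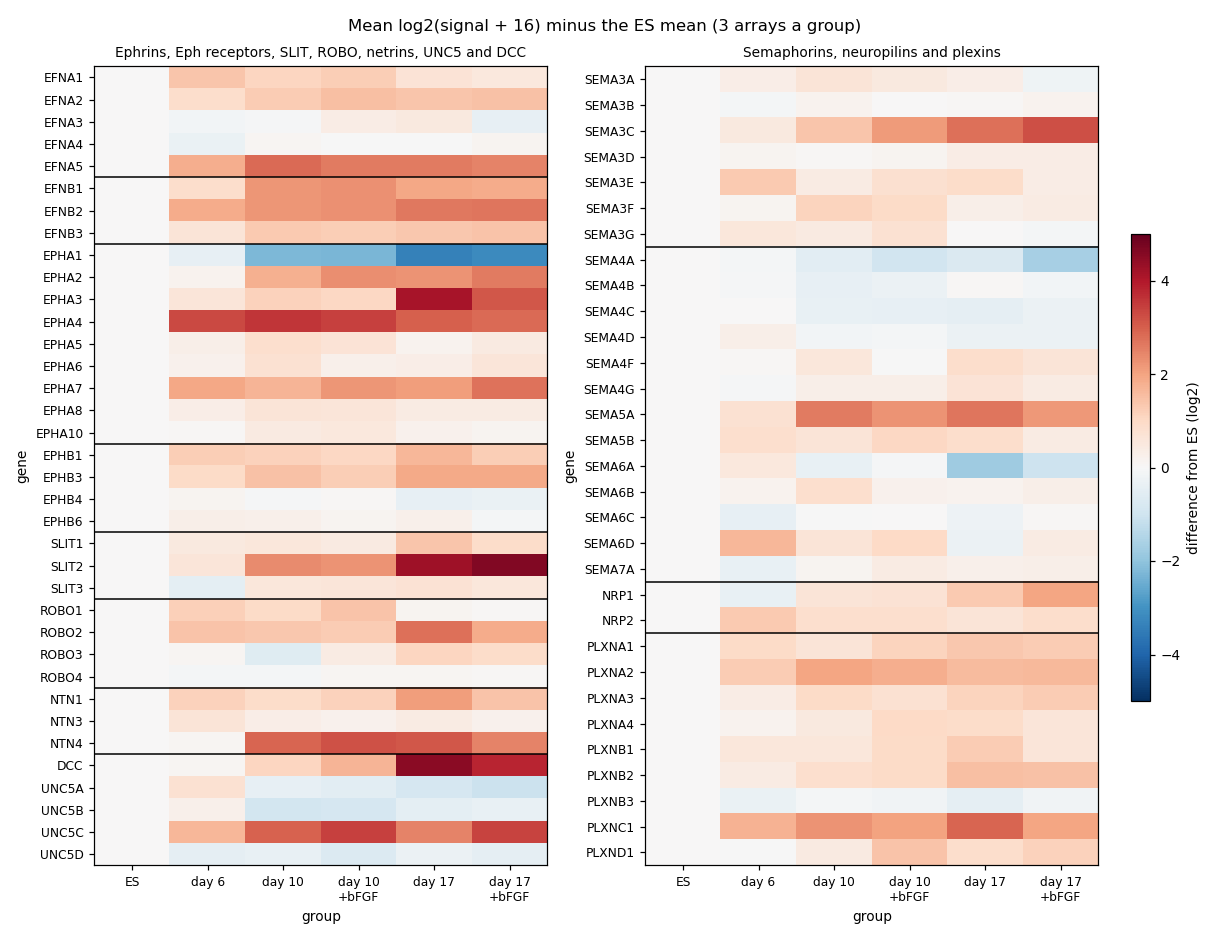
Difference of each group's mean log2(signal + 16) from the ES mean (colour, log2; 3 arrays a group) for the 67 genes, grouped by family with lines between families. DCC (4.52), SLIT2 (4.23) and EPHA3 (4.11) reach the darkest red at untreated day 17, and EPHA1 (-3.37) the darkest blue there.

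Array measures moved with some groups. Pool 2 of the 4 neuroepithelial groups had median signals of 48.7 to 50.8, against 25.2 to 32.7 on the other 14 arrays, which raises the dimmest probe sets there. Pool 2 of all groups had ACTB 3' to 5' signal ratios, a sign of RNA integrity, of 2.27 to 2.64, against 1.17 to 1.75 in pools 1 and 3. The labelled cells carried their markers: the summed signal of 7 ES markers lay between 35822 and 38468 in ES cells and between 11053 and 12775 at untreated day 17, and that of 8 neuroepithelial markers between 6514 and 8054 and between 21036 and 28763. SOX2 is in both lists, with means of 6453 in ES cells and 6591 at untreated day 17, and makes up most of the neuroepithelial sum in ES cells. Other cells' markers moved too. The summed signal of 10 neuronal markers was 3897 to 6154 in ES cells, 5382 to 8996 at untreated day 10 and 14388 to 16661 at untreated day 17. TUBB3, with means of 4436, 4190 and 6598 in these groups, makes up most of the sum in ES cells. From untreated day 10 to day 17 the mean of STMN2 went from 216 to 2225, of DCX from 449 to 2246 and of MAP2 from 1985 to 2199. The summed signal of 9 mesenchyme and muscle markers was 5184 to 6446, 1505 to 1578, 7448 to 8783 and 14041 to 17834 in ES cells, day 6, untreated day 10 and untreated day 17. The 8 endothelial and blood markers together stayed between 230 and 725 in every group. In the same order, 7 neural crest markers summed to 674 to 798, 1564 to 1838, 811 to 1386 and 464 to 809, with day 6 above the rest. The sums of 5 markers listed for surface ectoderm were 11464 to 13022, 9860 to 11094, 2830 to 4117 and 1702 to 2356, each stage below the one before. These sums were highest in ES cells, so they cannot be read as an amount of surface ectoderm cells. The sums of 6 endoderm, yolk sac and liver markers were 143 to 159, 99.8 to 152, 127 to 298 and 1078 to 1767, with untreated day 17 far above the rest. The part of these cells in the results was not tested.

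Of the 8 ephrin ligands, EFNA1, EFNA5 and EFNB2 passed the test as higher by day 6, and none was called lower in any comparison. In the values that follow, the 3 signals of a group are those of pools 1, 2 and 3, in the authors' scaled units, and changes are given on the log2(signal + 16) scale with their standard error. EFNA5, an ephrin-A ligand known for mapping retinal axons, gave signals of 155, 156 and 106 in ES cells, 559, 467 and 551 at day 6 and 1161, 1007 and 1083 at untreated day 10. The 3 groups did not overlap, and the gene rose in both steps (by 1.82 ± 0.23, adjusted p = 1.33e-04, and by 1.02 ± 0.23, adjusted p = 0.0114; limma). At untreated day 17 it read 1060.1, 683 and 1071, with pool 2 below all 3 day 10 pools. The day 10 call for EFNA5 was lost under 2 of 17 alternative settings, including that without day 6 pool 2 (adjusted p 0.0565, limma). EFNA1, the first ephrin to be found, read 37.7, 10.3 and 35.8 in ES cells and 70.7, 109.5 and 99.6 at day 6, all day 6 pools being above all ES pools (1.37 ± 0.33, adjusted p = 0.0264, limma). Its mean then went to 74.7 ± 24.7 at day 10 and 55.1 ± 29.9 at day 17 (SD, n = 3), and its day 17 pools overlapped the ES pools. The day 6 call for EFNA1 was lost under 5 of 17 alternative settings, including those without ES pool 2 or day 6 pool 2 or 3 (adjusted p 0.100 to 0.130, limma).

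The 3 ephrin-B ligands, membrane-spanning proteins that also signal back into their own cell, were all higher at untreated day 17 than in ES cells. EFNB2, which with its receptor EPHB4 is best known for parting arteries from veins, read 346, 387 and 263 in ES cells, 1277, 1118 and 1331 at day 6, 1536, 1951 and 1273 at day 10 and 2248, 2067 and 2047 at day 17 without bFGF. The ES pools lay far below all others, and the gene rose by day 6 (1.87 ± 0.20, adjusted p = 2.96e-05, limma). Its day 17 pools were also above all day 6 and day 10 pools: the later steps did not pass (0.33 ± 0.20 and 0.44 ± 0.20), and the whole course came to 2.64 ± 0.20. EFNB1, the gene of craniofrontonasal syndrome, read 17.5, 19.6 and 30.2 in ES cells, 65.2, 56.0 and 40.9 at day 6 and 150.2, 168 and 157 at day 10. Those groups did not overlap, and the second step passed the test (1.33 ± 0.26, adjusted p = 0.00383) while the first did not (0.87 ± 0.26, adjusted p = 0.0833; limma). With the pool number as a block the first step passed too (adjusted p = 0.0371 as a fixed and 0.0290 as a random block). EFNB3, a midline cue of the spinal cord, rose only over the whole course, from 108, 127 and 150.5 to 367, 241 and 494 (1.37 ± 0.34, adjusted p = 0.00787, limma). EFNA2, EFNA3 and EFNA4 passed no test without the block. EFNA2 read 143, 108 and 117 in ES cells and 350.1, 234 and 475 at day 17, with pool 2 the lowest at day 17 and pool 1 the highest in ES cells (1.37 ± 0.53, adjusted p = 0.0840, and 0.00222 with a fixed and 0.00859 with a random block; limma).

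Eph receptors moved in both directions. Of the 9 EphA genes, 2 rose by day 6, and 4 were higher and 1 lower at day 17 than in ES cells. Of the 4 EphB genes, 2 rose by day 6 and stayed higher at day 17. Of all genes, 2.19% rose by day 6, and 11.7% were higher and 8.47% lower at day 17. EPHA4, a receptor of both ephrin classes that marks hindbrain segments and steers motor and corticospinal axons, had the largest change of any guidance gene by day 6. Its signals were 147, 266 and 121 in ES cells and 1968, 1519 and 1919 at day 6, 2247, 2079 and 2299 at day 10 and 1496, 1601 and 1273 at day 17. The ES pools were far below the rest, and the day 6 change was 3.29 ± 0.24 (adjusted p = 3.39e-07, limma). EPHA7, a receptor of the developing cortex, read 112, 199 and 72.5 in ES cells and 411, 666 and 445 at day 6 (1.93 ± 0.29, adjusted p = 7.58e-04, limma), and 506, 442 and 338 and 535, 530.0 and 594 at the later untreated stages. It thus stepped up once, and the 3 untreated groups after ES lay within 338 to 666.

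EPHA3 and EPHA2 rose later. EPHA3, which binds ephrin-A5, read 2.89, 12.9 and 1.31 in ES cells, 19.7, 33.8 and 3.40 at day 6 and 29.6, 35.2 and 26.9 at day 10, with the first of these groups overlapping the second and the second the third. At untreated day 17 it read 300.3, 497 and 287, above every earlier array, a change of 2.98 ± 0.34 from day 10 (adjusted p = 1.74e-04, limma). EPHA2, a receptor with roles in epithelia and the lens, read 82.6, 57.1 and 60.2 at day 6 and 274, 196 and 229 at day 10 without overlap (1.59 ± 0.36, adjusted p = 0.0122, limma). The call was lost under 3 of 17 alternative settings, including those without day 6 pool 2 or 3 or day 10 pool 1 (adjusted p 0.0512 to 0.0535, limma). Its day 17 pools were further apart, at 446, 171 and 455. EPHA1, the first Eph receptor to be cloned, went the other way: 405, 263 and 331 in ES cells, 249, 219.7 and 257 at day 6, 51.6, 49.9 and 70.8 at day 10 and 5.62, 52.8 and 8.61 at day 17. It fell from day 6 to day 10 (-1.82 ± 0.38, adjusted p = 0.00654) and over the whole course (-3.37 ± 0.38, adjusted p = 6.19e-06; limma), with pool 2 standing apart at day 17.

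Among EphB receptors, EPHB1, known for sending retinal axons to the same side of the brain, read 66.1, 79.1 and 78.1 in ES cells, 184, 184 and 229.9 at day 6 and 308, 268 and 236 at day 17 (1.25 ± 0.19 by day 6, adjusted p = 7.60e-04, limma). EPHB3, which acts in the crossing of the corpus callosum, went from 38.6, 22.3 and 44.2 in ES cells to 86.9, 87.4 and 72.0 at day 6 (0.97 ± 0.26, adjusted p = 0.0460, limma) and 165, 163 and 180.0 at day 17; its day 6 call was lost under 11 of 17 alternative settings, including the loss of any 1 of the 6 arrays (adjusted p 0.0527 to 0.191, limma). In both genes every later pool was above every ES pool. EPHB4, the receptor of ephrin-B2 in veins, and EPHB6, an Eph receptor with no active kinase, passed no test. EPHB4 group means ran from 283 ± 74.6 at untreated day 17 to 420.1 ± 107 at day 6 (SD, n = 3). EPHA5, EPHA6, EPHA8 and EPHA10 also passed no test, and their highest group mean was 52.6, for EPHA8 at untreated day 10.

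**Figure D3:**
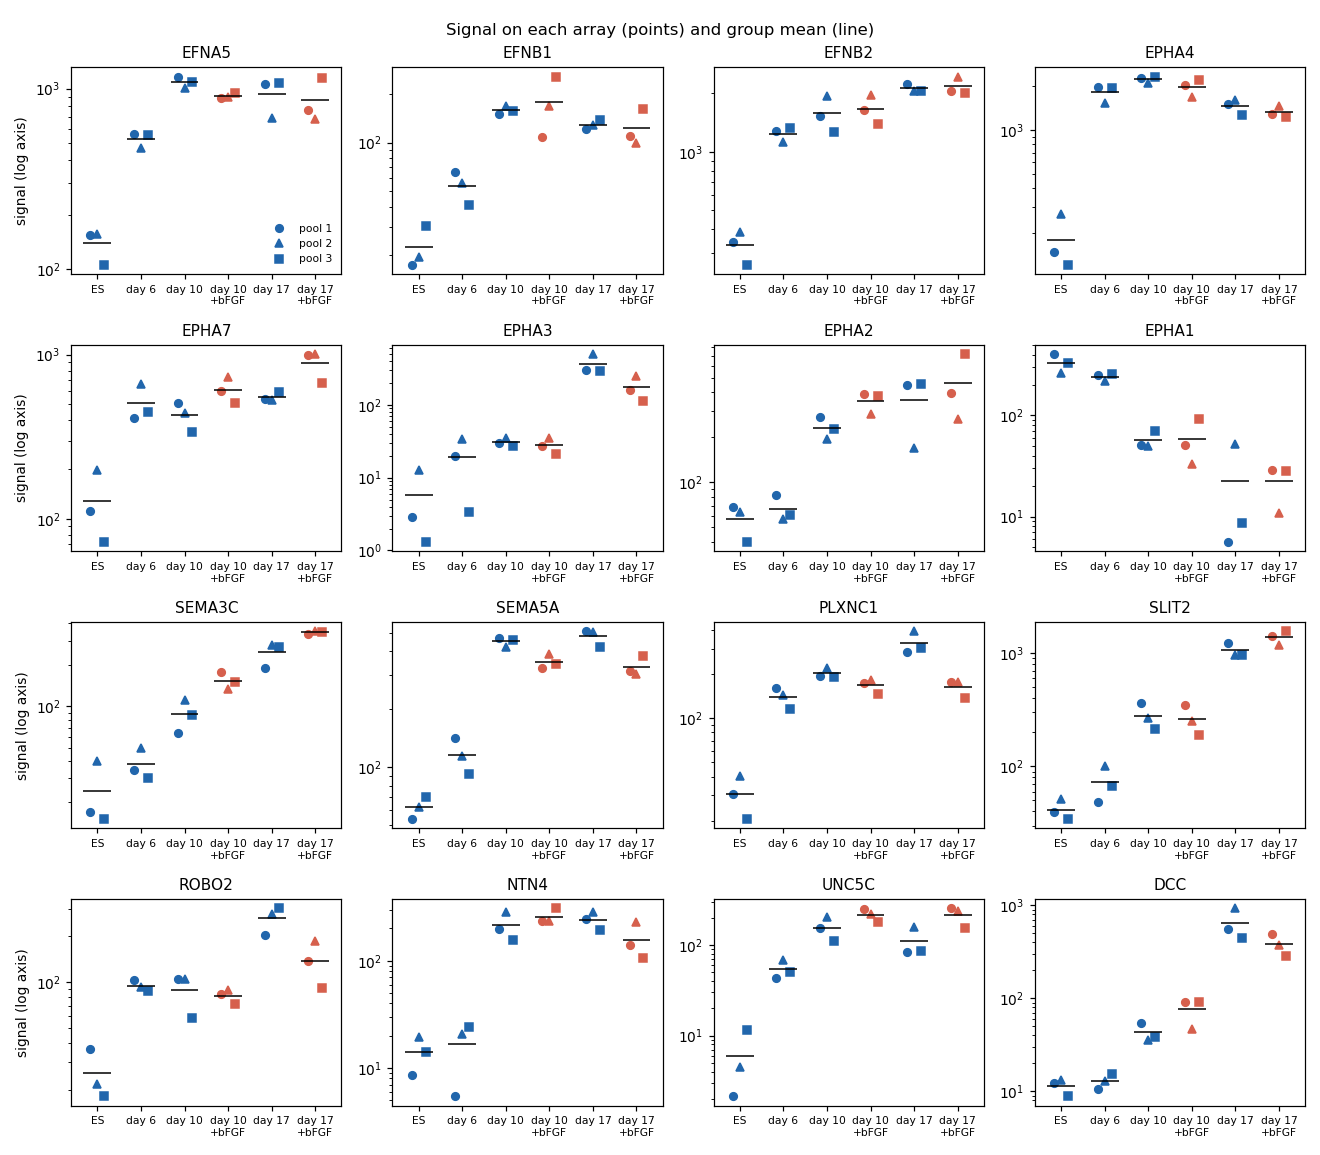
Signal on each array (vertical log axis, authors' units; a different range in each panel) for 16 guidance genes in the 6 groups (horizontal axis), with the shape for the pool, blue for arrays without bFGF, red for arrays with bFGF and a line at the group mean. EPHA4, EFNB2 and EPHA7 step up by day 6, EFNB2 is highest among untreated arrays at day 17, NTN4 steps up at day 10, and DCC and EPHA3 reach means of 640.3 and 361 at untreated day 17 from 42.9 and 30.6 at day 10.

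Semaphorins, the largest family here, moved in both directions. Of the 7 secreted class 3 genes, 1 was higher at day 17 than in ES cells. Of the 13 membrane-linked genes, 1 was higher and 2 were lower. In that comparison 20.2% of all genes passed, 11.7% higher and 8.47% lower, so semaphorins were not called more often than genes at large. SEMA3C, a secreted cue that acts on callosal axons and on neural crest of the heart, read 17, 39.9 and 15.1 in ES cells, 34.5, 50.1 and 30.2 at day 6, 64.2, 112 and 86.1 at day 10 and 190.4, 280.0 and 271 at day 17. The ES and day 6 pools overlapped, after which each stage lay above the one before. It rose from day 6 to day 10 (0.92 ± 0.25, adjusted p = 0.0370, limma) and from day 10 to day 17 (1.36 ± 0.25, adjusted p = 0.00842, limma). The first of these calls was lost under 10 of 17 alternative settings, including those without day 6 pool 1 or 3 or day 10 pool 2 or 3 (adjusted p 0.0900 to 0.158, limma). The second was lost under 2, with the compared groups only (adjusted p 0.158, limma) and with averaged probe sets (adjusted p 0.115, limma). The 1 other SEMA3C probe set changed by 0.56 from day 10 to day 17. SEMA3F, the repellent read by neuropilin-2, was high in the middle of the course: 506, 333 and 421 at day 6, 1032, 619 and 890.4 at day 10 and 446, 431 and 526 at day 17. The day 10 pools lay above both other groups, and the rise passed the test (0.97 ± 0.26, adjusted p = 0.0361, limma), while the change to day 17 was -0.81 ± 0.26 (adjusted p = 0.184). The day 10 call was lost under 7 of 17 alternative settings, including those without day 6 pool 2 or 3 or day 10 pool 1 or 3 (adjusted p 0.0985 to 0.154, limma).

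SEMA5A, a transmembrane semaphorin with thrombospondin repeats that can attract or repel, rose in 2 steps. It read 53.5, 61.9 and 69.4 in ES cells, 141, 114 and 92.2 at day 6, 466, 422 and 459.5 at day 10 and 508, 505 and 420.0 at day 17. The first 3 groups did not overlap (by 0.75 ± 0.18, adjusted p = 0.0260, and 1.83 ± 0.18, adjusted p = 8.72e-06; limma), and days 10 and 17 did. The first of these calls was lost under 8 of 17 alternative settings, including those without ES pool 1 or 2 or day 6 pool 1 or 2 (adjusted p 0.0664 to 0.147, limma). SEMA6D, a ligand of plexin-A1, rose once and for a short time: 235, 309.9 and 104 in ES cells, 729.9, 719 and 533 at day 6, 374, 331 and 265 at day 10 and 162, 151 and 163 at day 17. The day 6 pools were above all others (1.65 ± 0.35, adjusted p = 0.0113, limma), and the later changes of -0.99 ± 0.35 and -0.95 ± 0.35 did not pass. The day 6 call was lost under 4 of 17 alternative settings, including those without ES pool 3 or day 6 pool 1 or 2 (adjusted p 0.0527 to 0.0596, limma).

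Both semaphorins that fell were transmembrane proteins. SEMA6A, a ligand of plexin-A2 and plexin-A4, read 1719.8, 1340.3 and 859 in ES cells, 2034, 1597 and 1782 at day 6, 1517, 788 and 761 at day 10 and 468, 255 and 359 at untreated day 17. The day 17 pools were below all earlier arrays (-1.80 ± 0.36 against ES, adjusted p = 0.00154, limma). SEMA4A, a semaphorin also known from immune cells and the retina, went from 82.2, 50.2 and 56.9 to 40.1, 21.9 and 32.8 (-0.73 ± 0.24, adjusted p = 0.0449, limma), and its 1 other probe set differed in sign (0.23). The call was lost under 11 of 17 alternative settings, including those without ES pool 1 or 3 or day 17 pool 2 or 3 (adjusted p 0.0752 to 0.185, limma). The other 14 semaphorins passed no test without the block. SEMA3A, the classical collapsing factor, had group means of 217 ± 56.3 in ES cells and 276 ± 67.8 at day 17 (SD, n = 3), and SEMA3E, the ligand of plexin-D1, read 6.42, 5.74 and 5.03 in ES cells and 25, 52.0 and 39.7 at day 6 (1.31 ± 0.41, adjusted p = 0.102, and 0.0226 with a fixed and 0.0230 with a random block; limma).

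On the receptor side of the semaphorins, 1 of the 2 neuropilins and 2 of the 9 plexins rose by day 6 (2.19% of all genes did). At day 17, 1 neuropilin and 4 plexins were above ES cells (11.7% of all genes were), and none fell. NRP2, the co-receptor of SEMA3F, read 56.4, 61.6 and 36.6 in ES cells and 149, 189.9 and 119 at day 6 without overlap (1.32 ± 0.26, adjusted p = 0.00719, limma), then 105, 85.4 and 118 and 87.8, 54.1 and 138. NRP1, the co-receptor of SEMA3A and of VEGF, took another course: 35.6, 55.7 and 29.1 in ES cells, 21.6, 53.7 and 14.4 at day 6, 79.2, 96.1 and 42.9 at day 10 and 165, 133 and 75.6 at day 17 (1.30 ± 0.37 over the whole course, adjusted p = 0.0192, limma). That call was lost under 6 of 17 alternative settings, including those without ES pool 1 or 3 or day 17 pool 1 or 2 (adjusted p 0.0594 to 0.0893, limma). The 10 other NRP2 probe sets changed by -0.26 to 1.36 by day 6, and the 3 other NRP1 probe sets by -0.43 to 0.15 over the whole course.

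PLXNC1, the receptor of SEMA7A, was the plexin that changed most. It read 30.5, 40.5 and 20.5 in ES cells, 160.1, 144 and 115 at day 6, 196, 222 and 190.3 at day 10 and 285, 394 and 304 at day 17. None of these groups overlapped: the first step passed the test (1.76 ± 0.20, adjusted p = 5.51e-05, limma), the next 2 did not (0.50 ± 0.20 and 0.64 ± 0.20), and the whole course came to 2.90 ± 0.20. PLXNA2, a receptor of SEMA6A, read 11, 14.9 and 19.9 in ES cells, 83.5, 39.8 and 61.3 at day 6 and 107, 126 and 83.6 at day 10 (1.28 ± 0.26 by day 6, adjusted p = 0.00740, limma), and its day 17 pools overlapped those of both days. The day 6 call for PLXNA2 was lost under 2 of 17 alternative settings, including that without day 6 pool 1 (adjusted p 0.0522, limma). PLXNA3 (1.13 ± 0.37, adjusted p = 0.0392) and PLXND1, the vascular receptor of SEMA3E (0.89 ± 0.24, adjusted p = 0.0146), were higher at day 17 than in ES cells (limma). The PLXNA3 call was lost under 10 of 17 alternative settings, including those without ES pool 1 or 3 or day 17 pool 1, 2 or 3 (adjusted p 0.0643 to 0.203, limma), and the F test among the 6 groups did not call PLXNA3 (adjusted p = 0.109). The PLXND1 call was lost under 5 of 17 alternative settings, including those without ES pool 2 or day 17 pool 3 (adjusted p 0.0673 to 0.0705, limma). PLXNB2 read 263, 97.6 and 73.4 in ES cells and 499, 196 and 579.7 at day 17, and its 1.51 ± 0.55 did not pass (adjusted p = 0.0661, limma), with the pools of each group lying far apart. It passed with the pool number as a block (adjusted p = 0.00260 fixed and 0.00720 random).

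Among the SLIT ligands, secreted repellents of the midline, SLIT2 had the largest change. Its signals were 39.2, 51.1 and 34.2 in ES cells, 48.9, 101 and 67.5 at day 6, 362, 266 and 215 at day 10 and 1243, 968 and 972 at day 17. ES and day 6 overlapped, and the later groups stood clear of them and of each other (1.76 ± 0.26 to day 10, adjusted p = 4.65e-04, and 1.88 ± 0.26 to day 17, adjusted p = 9.29e-04; limma). SLIT1, the form largely restricted to the nervous system, read 33.5, 38.1 and 41.9 in ES cells, 52.7, 64 and 74.9 at day 10 and 147, 117 and 116 at day 17 (1.40 ± 0.21 over the whole course, adjusted p = 1.13e-04, limma). SLIT3 passed no test, with 38.4, 27.7 and 54.2 in ES cells and 42.8, 161 and 54.4 at day 17, pool 2 being the highest there.

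Of the 4 ROBO receptors, 2 were higher at day 17 than in ES cells (11.7% of all genes were). ROBO2 read 36.7, 21.7 and 18.1 in ES cells, 104, 93.3 and 87.9 at day 6, 104, 105 and 58.8 at day 10 and 202, 275 and 301 at day 17. It rose by day 6 (1.44 ± 0.26, adjusted p = 0.00307) and again from day 10 to day 17 (1.40 ± 0.26, adjusted p = 0.00850; limma), with days 6 and 10 overlapping. ROBO3, which lets commissural axons cross the midline and is mutated in horizontal gaze palsy, read 27.9, 8.94 and 33.0 in ES cells, 31.9, 23.6 and 17.4 at day 6, 7.94, 15.2 and 5.10 at day 10 and 55.6, 81.1 and 54.7 at day 17. The day 10 pools were below all day 6 pools, and the day 17 pools above every other untreated array (1.65 ± 0.27 from day 10 to day 17, adjusted p = 0.00317, limma). Its call over the whole course was lost under 5 of 17 alternative settings, including that without ES pool 2 (adjusted p 0.0512, limma). ROBO1, which acts with ROBO2 in axon repulsion, was high at day 6 and day 10, at 2402, 2215 and 1635 and 2203, 2087 and 1215, and read 1147, 1223 and 517 in ES cells and 1054, 813 and 1146 at day 17. It differed among the 6 groups by the F test (adjusted p = 0.00830, limma) and in no single comparison without the block. By day 6 its change was 1.18 ± 0.34 (adjusted p = 0.0674, and 0.0129 with a fixed and 0.0126 with a random block; limma). ROBO4, an endothelial receptor, had group means between 36.3 and 45.5 and passed no test.

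Netrins split by gene. NTN4, a netrin of basement membranes, had the largest rise of any guidance gene from day 6 to day 10. It read 8.61, 19.5 and 14.2 in ES cells, 5.45, 20.8 and 23.9 at day 6, 199, 286 and 157 at day 10 and 244, 286 and 194 at day 17; ES and day 6 overlapped, as did days 10 and 17, with a wide gap between (2.82 ± 0.30 at that step, adjusted p = 1.74e-05, limma). NTN1, the floor plate attractant of commissural axons, read 4.99, 43.0 and 13.7 in ES cells, 88.9, 76.5 and 24.3 at day 6, 48.5, 67.2 and 28.4 at day 10 and 123, 121 and 134 at day 17. Its rise passed over the whole course (2.09 ± 0.37, adjusted p = 5.76e-04, limma), and its 2 other probe sets changed by 0.11 to 0.35. NTN3 passed no test, and its highest signal on any array was 38.2.

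DCC, the netrin receptor that mediates attraction, read 12.3, 13.1 and 8.84 in ES cells, 10.6, 13.0 and 15.3 at day 6, 54.6, 35.4 and 38.7 at day 10 and 557, 924 and 441 at day 17. Day 10 stood clear of both earlier groups (1.01 ± 0.28, adjusted p = 0.0403, limma), although this call was lost under 11 of 17 alternative settings, including the loss of any 1 of the 6 arrays (adjusted p 0.0626 to 0.136, limma). The day 17 pools lay above every earlier array, a change of 3.42 ± 0.28 from day 10 (adjusted p = 7.61e-06, limma). UNC5C, a receptor that turns netrin into a repellent, rose in the first 2 steps: 2.15, 4.56 and 11.4 in ES cells, 43.7, 68.3 and 50.2 at day 6 and 153, 201 and 109 at day 10, then 83.2, 159 and 86.1 at day 17. The first 3 groups did not overlap (1.67 ± 0.28, adjusted p = 0.00167, and 1.26 ± 0.28, adjusted p = 0.0102; limma). The second of these calls was lost under 5 of 17 alternative settings, including those without day 6 pool 1 or day 10 pool 2 (adjusted p 0.0539 to 0.0565, limma). UNC5B, known from vessel branching, fell from day 6 to day 10, from 304, 328 and 233 to 98.2, 175 and 87.4 (-1.20 ± 0.32, adjusted p = 0.0338, limma). That call was lost under 8 of 17 alternative settings, including those without day 6 pool 1, 2 or 3 or day 10 pool 1 or 3 (adjusted p 0.0524 to 0.127, limma). UNC5A and UNC5D passed no test without the block.

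The 6 genes that rose from untreated day 10 to untreated day 17 were DCC, EPHA3, SLIT2, ROBO3, ROBO2 and SEMA3C. The pools of the 2 days did not overlap for 20 of the 67 guidance genes, these 6 among them (29.9%, against 13.6% of all genes). With the pool number as a fixed or as a random block, 10 of the 67 passed; the 4 added were PLXNC1 (0.64), SLIT1 (0.84), and, lower at day 17, SEMA3F (-0.81) and SEMA6A (-1.43). The share of all genes called in the blocked fits, or in a fit on the 6 arrays of both days alone, is not given here. In the latter fit 2 of the 67 passed, DCC and EPHA3. Over the same arrays the summed neuronal markers went from 5382 to 8996 at day 10 to 14388 to 16661 at day 17, those of mesenchyme and muscle from 7448 to 8783 to 14041 to 17834, and those of endoderm, yolk sac and liver from 127 to 298 to 1078 to 1767, while surface ectoderm markers were lower, all without overlap, and their part in these 6 changes was not tested. Single neuronal markers changed by more or by less than their sum, as given above.

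Promoters of DCC, EPHA3 and SLIT2 are shown because these were the genes of the 6 with the largest changes and each has 1 promoter entry. The sequences are from RefSeq (GRCh38.p14), 250 bases before to 50 after the gene's start, on the gene's strand; 57 of the 67 genes have an entry. Capitals mark CANNTG, the E-box that neurogenic bHLH factors read; the motif is its own reverse complement, so both strands are covered. These are matches of letters, not sites of binding. DCC lies at chr18:52339947-52340246 (+), EPHA3 at chr3:89107371-89107670 (+) and SLIT2 at chr4:20251655-20251954 (+).
DCC: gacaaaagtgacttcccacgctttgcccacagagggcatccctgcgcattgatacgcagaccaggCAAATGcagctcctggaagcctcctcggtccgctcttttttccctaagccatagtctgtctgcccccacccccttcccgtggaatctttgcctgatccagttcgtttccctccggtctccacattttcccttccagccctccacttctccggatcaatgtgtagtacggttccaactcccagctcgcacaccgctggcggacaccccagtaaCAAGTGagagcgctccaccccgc
EPHA3: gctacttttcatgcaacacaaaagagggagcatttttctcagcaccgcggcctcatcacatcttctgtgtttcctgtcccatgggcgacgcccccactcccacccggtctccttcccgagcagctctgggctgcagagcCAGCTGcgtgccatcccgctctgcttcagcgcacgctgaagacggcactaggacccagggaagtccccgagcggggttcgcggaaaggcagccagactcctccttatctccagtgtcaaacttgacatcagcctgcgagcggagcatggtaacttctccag
SLIT2: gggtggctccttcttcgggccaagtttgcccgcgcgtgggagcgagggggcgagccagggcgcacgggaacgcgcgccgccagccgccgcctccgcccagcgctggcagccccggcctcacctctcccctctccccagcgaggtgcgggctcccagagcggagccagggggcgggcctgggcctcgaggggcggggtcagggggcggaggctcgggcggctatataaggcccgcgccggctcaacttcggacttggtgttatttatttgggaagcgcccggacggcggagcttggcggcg
The DCC window held 2 such motifs, the EPHA3 window 1 and the SLIT2 window 0, while 68.7% of all 35116 promoter windows held at least 1. The windows also differed in base composition: SLIT2 had 36 CpG pairs, EPHA3 17 and DCC 15, and the median window had 14. The GC box GGGCGG, counted on both strands, occurred 5 times in SLIT2 and was absent from the other windows shown; 45.0% of all windows held it. TATAAA, also counted on both strands, was in none of the windows shown and in 11.5% of all. Only exact matches were counted, and the SLIT2 window holds the near match TATATAAG.

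Without the block, bFGF moved no guidance gene past the test at day 10 or at day 17 (0 of 67 each, limma). Of all genes, 0.086% passed at day 10 (0.0809% higher and 0.00506% lower) and 0.339% at day 17 (0.182% higher and 0.157% lower). Without adjustment, 4 of the 67 had p under 0.05 at day 10 (5.97%, against 3.1% of all genes) and 11 at day 17 (16.4%, against 4.96%). The effect at day 17 differed from that at day 10 for 0 of 67 genes (0% of all genes; 5 without adjustment, 7.46% against 3.19%). The pools with and without bFGF did not overlap for 10 genes at day 10 (14.9%, against 6.11% of all genes; 6 higher and 4 lower with bFGF) and for 12 at day 17 (17.9%, against 9.03%; 4 higher and 8 lower). Each bFGF comparison shares its untreated arrays with the stage comparisons above. With the pool number as a block, PLXNC1 passed at day 17 in either form and EPHA3 in the fixed form alone.

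At day 10 the widest separations were in ROBO3 and PLXND1. ROBO3 read 7.94, 15.2 and 5.10 without and 37.9, 28.4 and 36.9 with bFGF (1.00 ± 0.27, adjusted p = 0.514, limma). PLXND1 read 115, 146 and 92.5 without and 182, 248 and 315 with it (0.97 ± 0.24, adjusted p = 0.377, limma). SEMA3C was higher with bFGF in all 3 pools at both days: 64.2, 112 and 86.1 without and 178, 132 and 150.3 with it at day 10, and 190.4, 280.0 and 271 without and 333, 350.5 and 346 with it at day 17. EPHA7 likewise read 535, 530.0 and 594 without and 991, 1008 and 675 with bFGF at day 17. SEMA5A pools were lower with bFGF at both days (-0.34 ± 0.18 and -0.50 ± 0.18). None of these passed. DCC differed in sign between the days: it read 91.8, 47.0 and 90.4 with bFGF at day 10 (0.62 ± 0.28) and 487, 372 and 282 at day 17 (-0.69 ± 0.28), overlapping the untreated pools at both, and the difference of the effects was -1.31 ± 0.40 (adjusted p = 0.948, limma).

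At day 17 the genes with lower pools in bFGF were EPHA3, PLXNC1, SEMA4A, ROBO2, NTN1, SEMA5A, SLIT1 and EPHB1. PLXNC1 read 285, 394 and 304 without and 176, 176 and 138 with bFGF (-0.93 ± 0.20, adjusted p = 0.0811, limma), and EPHA3 read 300.3, 497 and 287 without and 162, 249 and 113 with it (-1.01 ± 0.34, adjusted p = 0.560, limma). With the pool number as a fixed block both passed (adjusted p = 0.00935 and 0.0326), and as a random block PLXNC1 alone did. ROBO2 read 202, 275 and 301 without and 137, 184 and 91.1 with bFGF (-0.87 ± 0.26, adjusted p = 0.405, limma). The markers of other cells differed over the same arrays: the neuronal sum was 14388 to 16661 without and 9620 to 14208 with bFGF, and the sum of 6 endoderm, yolk sac and liver markers 1078 to 1767 without and 264 to 347 with it. Their part in these values was not tested.

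**Figure D4:**
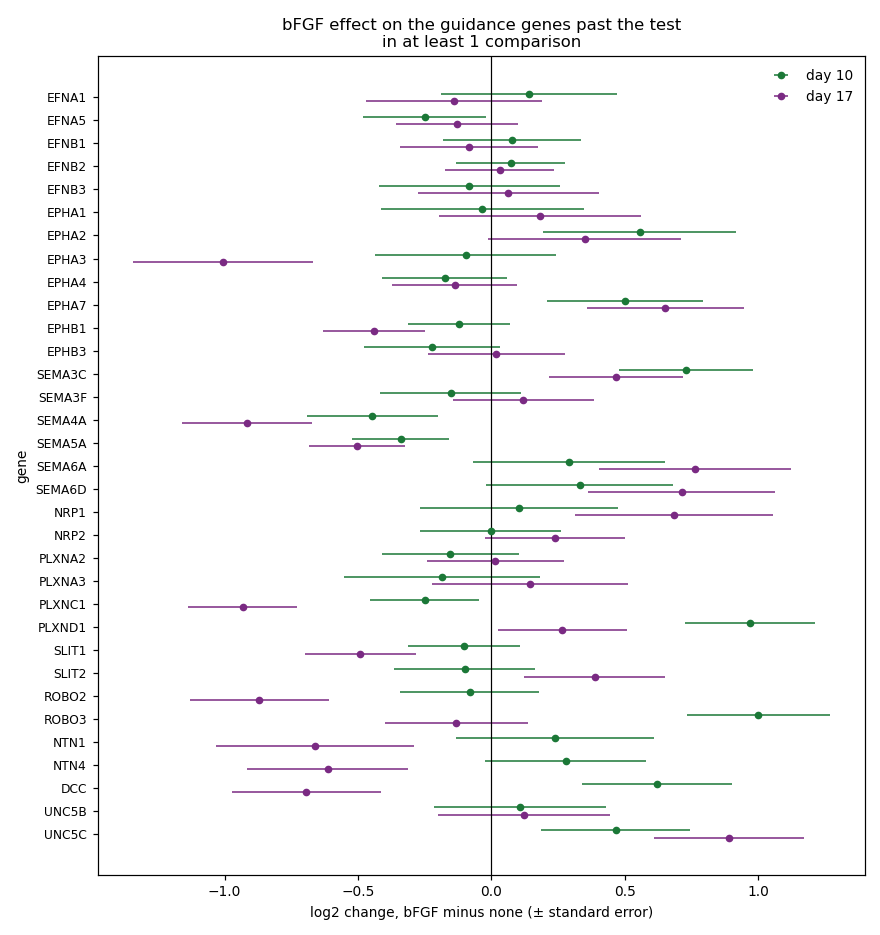
Log2 difference between bFGF and no bFGF (horizontal axis, ± standard error from limma) at day 10 (green) and day 17 (purple) for the 33 guidance genes past the test in at least 1 comparison (vertical axis). The day 17 points of EPHA3 (-1.01), PLXNC1 (-0.93), SEMA4A (-0.92) and ROBO2 (-0.87) lie farthest to the left, and the day 10 points of ROBO3 (1.00) and PLXND1 (0.97) farthest to the right.

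Several of these genes have more than 1 probe set, and 46 of the 67 did so in all. The brightest probe set on average stood for its gene, and the others did not always move with it. EFNB2, SLIT2 and ROBO2 were alike across theirs: the other SLIT2 probe sets rose by 1.23 to 1.92 from day 6 to day 10 and by 2.06 to 2.11 to day 17. The 2 other SEMA5A probe sets rose by 1.49 to 1.61 from day 6 to day 10, near the 1.83 of the one used, but changed by 0.21 to 0.51 by day 6, against 0.75. The 4 other EPHA4 probe sets changed by 0.12 to 3.57 by day 6. One other DCC probe set rose by 2.55 from day 10 to day 17 and another by 0.03, and those of EPHA3 by 1.44 and 0.04. The 3 other PLXNC1 probe sets rose by 0.62 to 0.80 by day 6, and the 2 of EPHA1 changed by -0.45 to 0.39 from day 6 to day 10. Probe sets of a gene can read different ends or forms of its transcripts, and which of these holds here was not tested. With the mean of all probe sets of a gene in place of the highest, 7 guidance genes were called by day 6 and 7 at the next step. The share of all genes called in that fit is not given here.

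**Figure D5:**
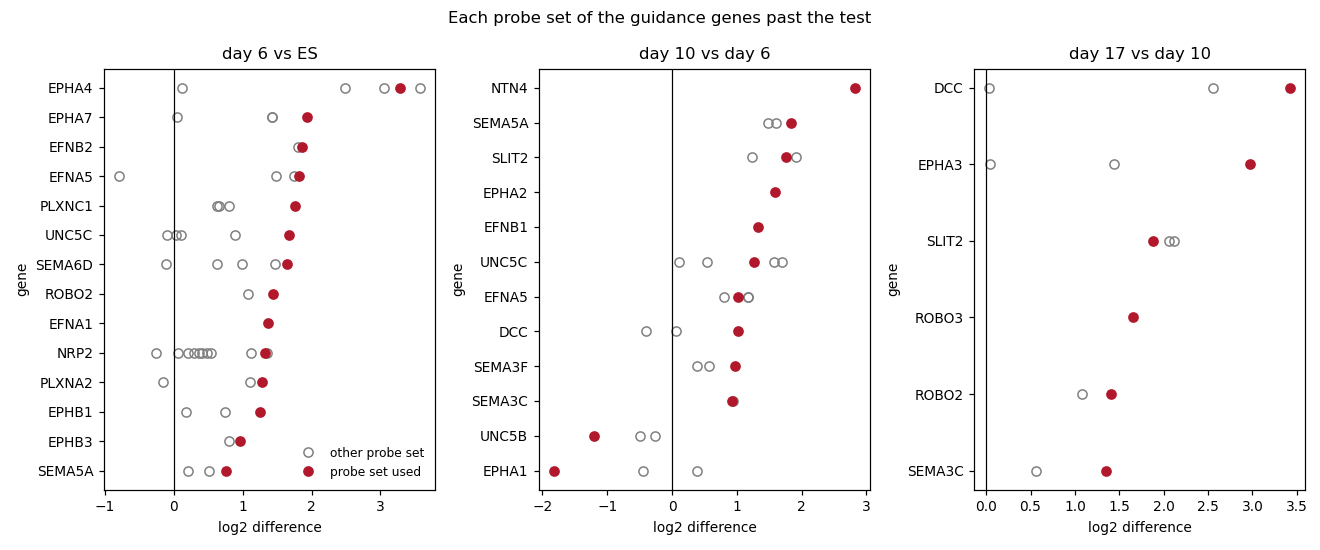
Log2 difference of every probe set (horizontal axis; filled for the one used, open for the others) of the guidance genes past the test in each step (vertical axis). The open points lie close to the filled one for EFNB2, SLIT2 and SEMA5A at day 10, and stand apart from it for UNC5C and NRP2 by day 6, for EPHA1 at day 10 and for EPHA3 at day 17.

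Other genes of the guidance machinery were read from lists of other cues, receptors and adhesion molecules (25 of 26 measured) and of intracellular effectors (42 of 48 measured). Both lists were chosen with earlier results of these data known. Of the first list, 5 rose and 1 fell by day 6, 4 rose and 2 fell to day 10, 3 rose to day 17, and 16 rose and 2 fell over the whole course. These were 24%, 24%, 12% and 72% of the list, against 3.85%, 6.37%, 1.99% and 20.2% of all genes called in the same comparisons, and the median change over the whole course was 1.49 against 0.09 for all genes. FLRT3, a fibronectin and leucine-rich adhesion protein that binds ROBO1 and UNC5 receptors, rose by day 6, from a mean of 96.8 to 1819 (4.06 ± 0.22, adjusted p = 3.09e-08, limma). NRCAM and BOC also rose, CXCL12 fell from day 6 to day 10 (-1.87), and L1CAM (2.06) and CNTN2 (1.99), adhesion proteins of growing axons, rose from day 10 to day 17. CNTN1 fell in the first 2 steps (-1.37 and -1.60) and rose in the last (1.20).

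Of the 42 effectors, 3 rose and 1 fell by day 6, 2 rose and 3 fell to day 10, 3 rose to day 17, and 12 rose and 1 fell over the whole course, with a median of 0.39. These were 9.52%, 11.9%, 7.14% and 31% of the list, against the same 3.85%, 6.37%, 1.99% and 20.2% of all genes. SRGAP3 and SRGAP1, GTPase-activating proteins that act below ROBO receptors, rose from day 10 to day 17 (by 1.24 and 0.80). SRGAP3 had also risen by day 6 (0.99). DPYSL5, a collapsin response mediator, rose by day 6 (1.77). MICAL2, an actin-oxidising enzyme, was the only gene of either list past the test for bFGF, at day 10 (1.27 ± 0.23, adjusted p = 0.0495, limma).

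The 33 guidance genes that passed no test without the block included 9 of the 13 membrane-linked and 5 of the 7 secreted semaphorins, and 5 of the 9 plexins. The ratio of the highest to the lowest group mean was 1.25 for ROBO4, 1.37 for EPHB6, 1.38 for SEMA4C and 1.46 for EFNA4. SEMA4C means lay between 597 ± 10.4 and 824 ± 31.1 (SD, n = 3), so it was measured well above the dimmest probe sets on every array. UNC5D, an UNC5 receptor of the developing cortex, read 356, 489.9 and 298 in ES cells and 257, 299.9 and 345 at day 17. Others, such as PLXNA1 at 303, 187.4 and 125 in ES cells and 762, 325 and 549.6 at day 17 (1.35 ± 0.53, adjusted p = 0.0898, limma), differed in mean but spread widely between pools. PLXNA1 passed with the pool number as a block (adjusted p = 9.00e-04 fixed and 0.00692 random), and from ES to day 6 with the fixed block alone (0.96, adjusted p = 0.0320; limma). Over the whole course the block also added PLXNA4 (0.93) and SEMA5B (0.88) in either form, SEMA3E (0.91), SEMA4G (0.68) and, lower at day 17, UNC5B (-0.50) in the fixed form alone, and SEMA4C (-0.43) in the random form alone. A p that misses the threshold does not show that these genes held the same level.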

How the data were processed

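Total RNA pools of H9 cells were hybridised to 1-colour Affymetrix arrays. The values the authors deposited are linear signal intensities, 1 for each probe set on each array. Scaling by the authors is inferred from the values, because the 2% trimmed means agreed (150.016 to 150.026). Summarisation software, background method and detection calls: not given in the sources used here. A low signal therefore has no bound, and precision is limited by the number of arrays. Of 54675 probe sets, 41097 named 1 gene, 1801 several and 11777 none here. For each gene, probe sets naming only that gene were taken, those ending in _x_at were dropped where others existed, and the brightest on average was used. This gave 19775 genes; 19735 matched the current gene table and 0 symbols changed.

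Groups were compared with limma 3.58.1 (R 4.3.3) on log2(signal + 16). All 18 arrays were fitted with lmFit, 1 mean for each group, then eBayes, and p-values were Benjamini-Hochberg adjusted over all genes, with 0.05 as the threshold and no further scaling. The scale understates changes of low genes. Scripts were tested on simulated data. Members passing the test with groups that do not overlap were named, up to 12 a comparison by size of change; members named beyond this rule were chosen after their values were seen. The 67 genes and the gene lists were chosen with earlier results of these data known.

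Pool numbers come from the sample titles, except ES pool 1, numbered in accession order; 1 bFGF pool at day 10 is 2 in its title and 1 in its description. Deviations of same-numbered pools from their group means correlated at 0.209 to 0.383 (day 6 and ES), 0.365 to 0.621 (day 17 and day 10), 0.156 to 0.248 (day 17 and ES), 0.394 to 0.668 (bFGF, day 10) and 0.317 to 0.653 (bFGF, day 17) over 3 pairs each. All exceeded 0.1, so these numbers were taken as pairs, and blocked fits are given where they change a call. For day 10 and day 6 the lowest was 0.0749. Between ES and day 6, pools 1 and 3 carry equal passages in the labels, but the pools numbered 2 came from different passages. The labels thus bear out the pairing of that step only in part, and its blocked fits rest on it. The alternatives tried changed the pseudocount (1 or 64), scaled by quantiles, kept the upper 60% of genes, used a trended and robust prior, fitted the compared groups alone, averaged the probe sets of a gene, or left out pool 2 or single arrays.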

Additional observations from a re-analysis of the deposited data

How the results depend on the processing

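Of the 67 guidance genes, those called from ES to day 6 numbered 14, and 7 when the probe sets of each gene were averaged, which drops EPHA7, EPHB3, NRP2, PLXNA2, PLXNC1, SEMA5A and UNC5C. From day 6 to day 10 the number was 12, and 7 with the compared groups only, with averaged probe sets, with a pseudocount of 1, or without pool 2 of every group; DCC, SEMA3C, SEMA3F, UNC5B and UNC5C were the calls most often lost. Here same-numbered pools did not meet the rule for pairs, and the pool number as a fixed replicate block gave 18. It added EFNB3 (0.66), NRP1 (0.99) and PLXNC1 (0.50), and, lower at day 10, SEMA6A (-0.88), SEMA6D (-0.99) and UNC5A (-1.18). From day 10 to day 17 the number was 6; it was 2 with the compared groups only, and 10 with a pseudocount of 64 and with the pool number as a fixed or a random replicate block. For bFGF at day 17 it was 0, but 2 with the fixed block (EPHA3 and PLXNC1) and 1 (PLXNC1) with the random block, with a pseudocount of 64 and in the upper 60% of genes. Leaving out 1 array at a time gave 10 to 13 calls from ES to day 6, 7 to 9 from day 6 to day 10 (lowest without day 6 pool 2 or pool 3), 6 to 7 from day 10 to day 17, 25 to 27 over the whole course, 0 for both bFGF comparisons and their difference, and 29 to 34 by the F test. The fixed block gave 18 from ES to day 6, 36 over the whole course and 0 for bFGF at day 10, and the random block 17, 34 and 0. Neither lost a call, and the genes they added in these comparisons are named with the results. The share of all genes called under each alternative is not given here, so a higher or lower count need not be particular to guidance genes. No named change reversed its sign under any alternative run. Quantile scaling moved the median of all genes from 0.09 to -0.03 for day 17 against ES. Where no detection calls exist, changes of genes with signals near the lowest 5% of probe sets (1.23 to 3.46) are the least certain.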
